A study of Mus musculus with 6 samples.

Results

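Nuclear receptors are transcription factors whose activity is set, for many of them, by small fat-soluble ligands such as glucocorticoids, retinoic acid, thyroid hormone, vitamin D, sex steroids and fatty acids. They bind DNA as single molecules or in pairs, often with a retinoid X receptor (RXR) as partner, and act through coactivators and corepressors that modify or remodel chromatin. In the alveolus, glucocorticoid, retinoic acid and thyroid hormone signaling are known for their part in epithelial maturation and surfactant production. The genes described here were 39 of the 24421 genes in the deposited count table, picked by symbol: 33 nuclear receptors, leaving out the clock and LXR receptors, and 6 coregulators, among them *Hr* (hairless), a corepressor of thyroid hormone and vitamin D receptors.

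RNA was sequenced from alveolar type II cells (AT2s), the surfactant-producing cells of the lung alveolus, sorted by their lineage label. The 3 control libraries came from mice labelled Sftpc-CreERT2/+; R26-tdTomato/+. The 3 caBmpr1a libraries came from Sftpc-CreERT2/+; R26-tdTomato/R26-caBmpr1a mice, in which recombination switches on BMPR1a, a type I receptor for BMP ligands, in a mutant form that signals without ligand. In each group 1 library came from a mouse aged 16 weeks (control replicate 2 and caBmpr1a replicate 1) and the other 2 from mice aged 12 weeks. Both genotypes carry the CreERT2 recombinase, driven by the promoter of the AT2 surfactant gene *Sftpc* and active only with tamoxifen, and the tdTomato label. CreERT2 itself contains an altered ligand-binding domain of the estrogen receptor. The label and the receptor allele recombine separately, so the sort did not select cells for the active receptor. The interval between tamoxifen and the sort is not given for these libraries in the sources used here. The comparison asks how constitutive BMP signaling alters the AT2 transcriptome.

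Values are given as CPM (counts brought to an equal library total with TMM factors) where 1 gene is compared between libraries, and as RPKM (CPM per kilobase of exon) where genes are compared with each other. A gene was called higher or lower at a Benjamini-Hochberg adjusted p under 0.05 from edgeR's quasi-likelihood test over all 16723 tested genes, with a log2 fold change (caBmpr1a minus control) over 1 in size. Errors of log2 fold changes are standard errors, n = 3 libraries per group. The p-values measure only the spread between these libraries. In sorted bulk samples, fewer cells of a type and less RNA per cell cannot be told apart.

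The libraries held between 21554249 and 28440227 counts. *Bmpr1a* itself had a log2 fold change of -0.01 ± 0.15 and so did not separate the groups. By edgeR, 5 of the 9 listed BMP target genes were called higher (*Id1*, *Id3*, *Smad6*, *Smad9* and *Atoh8*), with log2 fold changes from 1.27 to 4.58. *Id2* (1.03 ± 0.21), *Id4* (1.71 ± 0.52) and *Smad7* (1.33 ± 0.23) also lay higher in every caBmpr1a library than in any control library. Their edgeR adjusted p was 0.138, 0.355 and 0.101. DESeq2 called 8 of the 9, all but *Bambi* (0.19 ± 0.13). Summed AT2 markers stood at 143800 to 162400 CPM in control and 107700 to 128800 CPM in caBmpr1a libraries. Control replicate 1 and caBmpr1a replicate 3 had Y-linked reads (171.8 and 158 CPM summed over *Eif2s3y*, *Kdm5d*, *Uty* and *Ddx3y*), and the other 4 libraries had none. These 2 libraries lay together at one end of the first principal component, which held 49.3% of the variance, so values without them are given where they moved a result. Each group held 1 of them.

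*Hr* was the only one of the 39 genes called. Its level was 5.56, 5.40 and 3.50 CPM in the control libraries and 19.6, 32.0 and 30.4 CPM in the caBmpr1a libraries. The lowest caBmpr1a library thus stood above the highest control library by more than the range within the controls. The mean rose from 4.82 ± 1.14 to 27.3 ± 6.73 CPM (SD, n = 3), a 5.67-fold difference, and the log2 fold change was 2.51 ± 0.25 (edgeR adjusted p = 0.0116). These values rest on 92 to 126 counts in control and 428 to 933 counts in caBmpr1a libraries. The *Hr* gene (mm10, chromosome 14, plus strand, 70554056 to 70573548) holds 5487 exon bases that overlap no other gene's exons. Per length it had 0.879 ± 0.209 RPKM in control and 4.98 ± 1.23 RPKM in caBmpr1a AT2s (SD, n = 3).

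The rise of *Hr* was seen within each subset of libraries. Between the 2 libraries with Y-linked reads its log2 ratio was 2.45, and over the 4 libraries without them its log2 fold change was 2.58 (edgeR adjusted p = 0.0171). Between the 2 libraries from mice aged 16 weeks the log2 ratio was 1.86, and between the means of the 12-week libraries it was 2.78. With 1 library left out at a time the log2 fold change stayed between 2.32 and 2.73. The edgeR adjusted p passed 0.05 without control replicate 2 (0.0602), control replicate 3 (0.05236) or caBmpr1a replicate 2 (0.0544), fits in which the number of genes called higher in the whole table was also only 6 to 8.

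The change of *Hr* lay within the range of the BMP target genes called in the same libraries. *Smad6*, an inhibitory SMAD induced by BMP signaling, had 44.7, 63.2 and 55.4 CPM in control and 105.3, 158.6 and 130.2 CPM in caBmpr1a libraries (log2 fold change 1.27 ± 0.19). *Smad9*, which encodes a receptor-regulated SMAD of the BMP branch, had 3.00, 5.66 and 3.58 against 35.7, 48.1 and 42.6 CPM (3.37 ± 0.25). *Id1*, an inhibitor of basic helix-loop-helix factors, had 18.5, 20.8 and 19.2 against 124.4, 176.6 and 411.4 CPM (3.61 ± 0.42). In *Hr*, *Smad6* and *Smad9* caBmpr1a replicate 1 was the lowest and replicate 2 the highest of the caBmpr1a libraries, while *Id1*, *Id3* and *Atoh8* were highest in replicate 3.

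**Figure D1:**
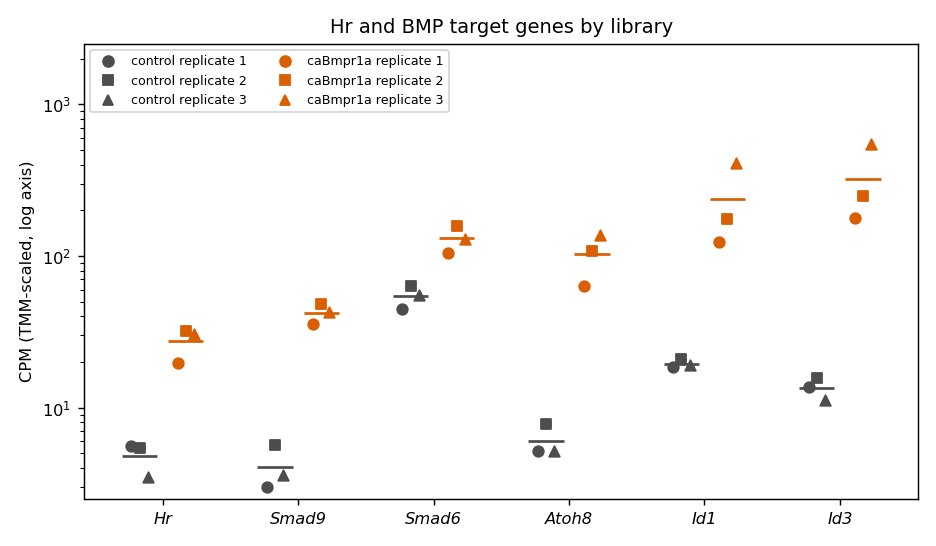
CPM on a log axis of *Hr* and of the 5 called BMP target genes in each library, with 1 point for each of the 3 control and 3 caBmpr1a libraries, a marker shape for each replicate and a line at each group mean. In all 6 genes each caBmpr1a point lies above each control point, and *Hr* moves from between 3.50 and 5.56 CPM to between 19.6 and 32.0 CPM.

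The other coregulators stayed near their control levels. *Ncor1*, the corepressor that unliganded thyroid hormone and retinoic acid receptors recruit, had 234.3, 415.2 and 452.2 CPM in control and 360.0, 353.2 and 277.8 CPM in caBmpr1a libraries. *Nrip1* (RIP140), a corepressor of liganded receptors, had 19.0, 50.8 and 59.0 against 46.4, 46.5 and 23.7 CPM. In both genes the 2 libraries with Y-linked reads were the lowest, 1 of each group, and the groups overlapped. The coactivators *Ncoa1* (log2 fold change -0.07 ± 0.18) and *Ncoa2* (-0.13 ± 0.22) had the same order of libraries at the low end. *Ncoa3*, a further steroid receptor coactivator, had 32.7, 38.2 and 40.6 CPM in control and 41.4, 45.0 and 47.0 CPM in caBmpr1a libraries. All 3 caBmpr1a values of *Ncoa3* were above all control values, yet the log2 fold change of 0.26 ± 0.12 had an edgeR adjusted p of 0.549.

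Over the 39 genes, 38 passed the expression filter and were tested. 1 was called higher and 0 lower, where 0.227% of all tested genes were called higher and 0.012% lower. The members were chosen with earlier results of these data known, so these shares are a description. By the adjusted p alone, with no limit on the fold change, the members' counts were the same, and 0.239% of all tested genes were higher and 0.012% lower. At an unadjusted p under 0.05, *Hr* and *Esrrb* were higher and *Rora* was lower, against 4.62% and 5.05% of all tested genes. DESeq2 also called *Hr* higher (adjusted p = 4.18e-17) and no other member, where it called 0.87% of its tested genes higher and 0.183% lower, and 7 of the 39 received no adjusted p from it. Limma-voom likewise called *Hr* alone (adjusted p = 0.03408), where it called 0.149% higher and 0.00598% lower. The log2 fold changes were positive for 19 and negative for 19 genes, with a median of -0.0041 against -0.0096 over all tested genes, and 30 of the 38 were under 0.5 in size. The caBmpr1a libraries were all above the control libraries in 4 genes (*Hr*, *Esrrb*, *Nr2f1* and *Ncoa3*) and all below them in 2 (*Rora* and *Thra*), where such a separation was found in 7.0% and 10.1% of all tested genes.

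**Figure D2:**
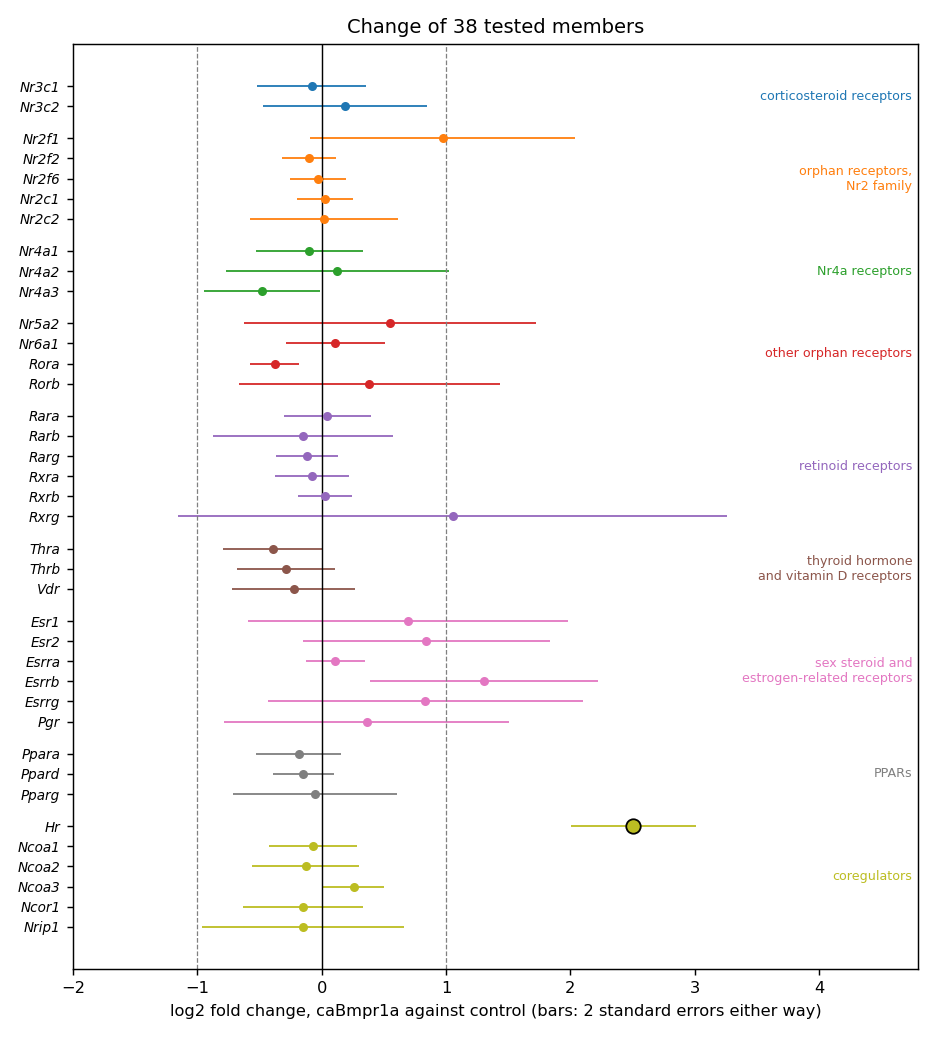
Log2 fold change (caBmpr1a minus control) of the 38 tested genes, grouped by role, with bars of 2 standard errors and dashed lines at a log2 fold change of 1 in either direction. *Hr*, the large outlined point at 2.51, is the only gene with an adjusted p under 0.05, and the widest bars belong to genes at low levels such as *Rxrg*.

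In control AT2s the 39 genes covered a wide span of levels per length. *Nr4a1* alone was over 100 RPKM, 13 genes lay between 10 and 100 RPKM, 13 between 1 and 10 RPKM and 12 under 1 RPKM. Lungs were dissociated with proteases before the sort. The part of that step in the level of *Nr4a1*, a gene induced by many stimuli, was not tested. After *Nr4a1* at 360.9 ± 45.2 RPKM came *Nr2f6* at 63.4 ± 0.68, *Thra* at 43.5 ± 3.995, *Ncor1* at 33.0 ± 10.5 and *Rxrb* at 25.8 ± 1.90 RPKM (SD, n = 3). *Ncor1* and *Rxrb* did not differ beyond their spread, nor did *Rxrb*, *Nr3c1* (23.8 ± 5.98) and *Rarg* (23.0 ± 2.01). The low class held *Hr* together with both estrogen receptors, the progesterone receptor, *Esrrb*, *Esrrg*, *Nr2f1*, *Nr5a2*, *Rorb*, *Rarb*, *Rxrg* and *Nr1i3*.

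**Figure D3:**
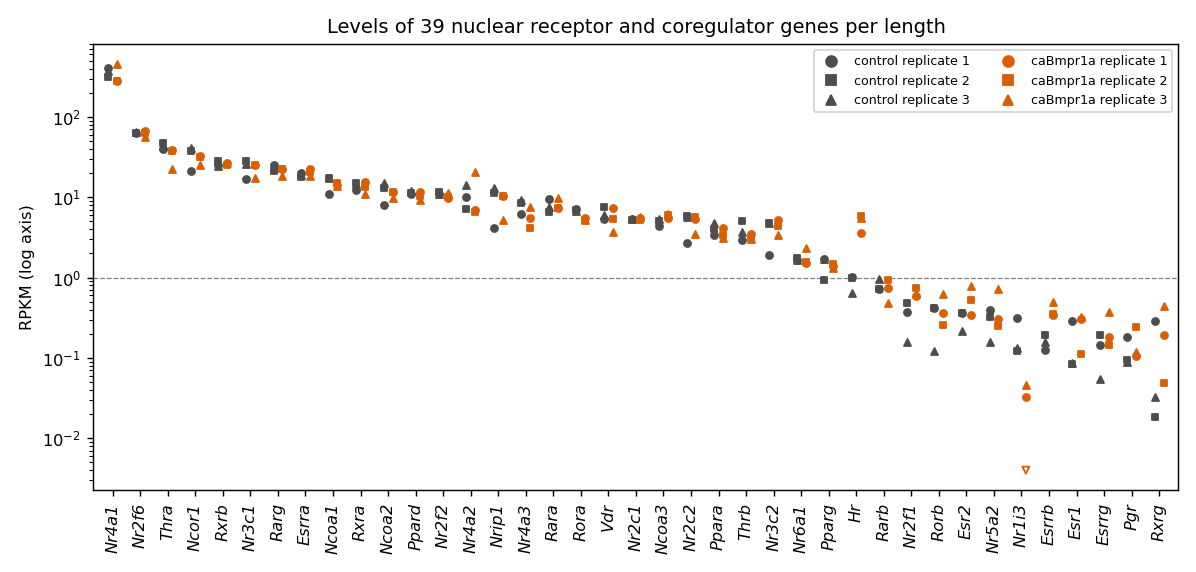
RPKM on a log axis of each of the 39 genes in the 6 libraries, coloured by group, with a marker shape for each replicate and genes sorted by their control mean, with an open triangle at the foot of the axis for a value of 0 (*Nr1i3* in caBmpr1a replicate 2). *Nr4a1* lies highest, at 360.9 RPKM in the control mean, and *Hr* is the gene whose 2 groups lie farthest apart among the tested genes.

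The log2 fold changes differed in size and precision between these classes. The 27 tested genes at 1 RPKM or more had log2 fold changes between -0.48 and 0.26 with a median of -0.08, and standard errors from 0.10 to 0.45. The 11 tested genes under 1 RPKM had a median of 0.83, and 10 of them were positive. Scarce genes in general leaned the same way. Of all 4662 tested genes under 1 RPKM, 82.7% were positive, with a median of 0.44. Of the 12061 at 1 RPKM or more, 35.7% were positive, with a median of -0.08. The classes were set by the control mean, which is also the base of the log2 fold change. A gene low in control by chance can fall in the low class with a positive value. The part of this classing in the signs was not tested. Without *Hr* the median of the other 10 was 0.77, with standard errors from 0.36 to 1.11, and none passed the adjusted threshold. Summed markers of other cell types were mostly higher in the caBmpr1a libraries. Mesenchymal markers stood at 225.5 to 331.1 CPM in control and 381.7 to 471.8 CPM in caBmpr1a libraries (11 of 12 genes higher by mean), and endothelial markers, with overlap, at 333.3 to 666 against 582.5 to 963.5 CPM (12 of 12). Leukocyte markers stood at 57.7 to 67.4 against 52.5 to 140.3 CPM (12 of 13), and mesothelial markers at 10.6 to 23.1 against 20.1 to 54.9 CPM (4 of 4). Airway markers stood at 865.3 to 1111 against 1091 to 1476 CPM (5 of 10, with *Krt5* at 0 in all libraries). The groups overlapped in the leukocyte, mesothelial and airway sums. Much of the difference in the airway sum lay in *Tppp3*, named after its values were seen. This microtubule-associated gene of ciliated cells was called higher (92.3 to 103.8 against 243.2 to 439.4 CPM, edgeR adjusted p = 0.01649). Without *Tppp3* the airway sums, which overlapped with it as well, were 761.6 to 1018 against 847.7 to 1113 CPM. AT1 markers stood at 2943 to 3790 against 3245 to 3839 CPM (8 of 10), and the 4 globin genes were at 0 in all libraries. The part of these cells in the levels of the weakly expressed receptors and of *Hr* was not tested.

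Of the corticosteroid receptors, the glucocorticoid receptor gene *Nr3c1* was the more abundant. It had 107.7, 178.6 and 166.2 CPM in control and 157.2, 161.0 and 109.9 CPM in caBmpr1a libraries (log2 fold change -0.08 ± 0.22). *Nr3c2*, which encodes the mineralocorticoid receptor and regulates sodium transport in epithelia, had 7.80, 19.4 and 19.3 against 21.3, 18.0 and 13.9 CPM (0.19 ± 0.33). In both the groups overlapped and the 2 libraries with Y-linked reads were the lowest. Among 17 genes of corticosteroid handling and known glucocorticoid targets, 0 were called in either direction (1 higher and 4 lower at an unadjusted p under 0.05), with a median log2 fold change of -0.0080 against -0.0096 over all tested genes. The largest positive value was that of *Zbtb16*, a zinc finger factor induced by glucocorticoids, with 55.0, 23.4 and 20.3 CPM in control and 13.5, 18.5 and 355.7 CPM in caBmpr1a libraries. That value came from caBmpr1a replicate 3 alone: the log2 fold change was 1.98 ± 1.12 over all libraries (edgeR adjusted p = 0.614) and -0.41 over the 4 libraries without Y-linked reads. The largest negative value was that of the metallothionein *Mt1* (-0.56 ± 0.17, edgeR adjusted p = 0.367).

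The *Nr4a* genes encode receptors without a classical ligand pocket that are induced within minutes of many stimuli, as immediate early genes. *Nr4a1* had 991.3, 771.4 and 917.9 CPM in control and 698.9, 685.6 and 1119 CPM in caBmpr1a libraries (log2 fold change -0.10 ± 0.22). *Nr4a2* had 33.4, 23.8 and 47.3 against 23.2, 21.7 and 68.9 CPM (0.13 ± 0.45, and -0.63 without the libraries with Y-linked reads). *Nr4a3* had 34.8, 47.0 and 52.4 against 31.0, 23.0 and 42.2 CPM (-0.48 ± 0.23, edgeR adjusted p = 0.560), and its log2 fold change was -0.85 over the 4 libraries without Y-linked reads (edgeR adjusted p = 0.05715). The 3 genes shared an order within the caBmpr1a group, highest in replicate 3 and lowest in replicate 2, and the groups overlapped in each. Of 20 other immediate early genes tested, 0 were called (1 higher and 0 lower at an unadjusted p under 0.05) and the median log2 fold change was 0.06. *Klf2*, a factor responsive to flow and serum, had the largest positive value (0.71 ± 0.27, edgeR adjusted p = 0.453) and *Hspa1b*, a stress-induced heat shock protein, the largest negative one (-0.47 ± 0.26, edgeR adjusted p = 0.600).

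The 5 orphan receptors of the COUP-TF and testicular receptor families were near their control levels or scarce. *Nr2f2* (COUP-TFII), known for its role in veins and mesenchyme, had 53.5, 56.0 and 53.7 CPM in control and 47.9, 48.5 and 55.6 CPM in caBmpr1a libraries (log2 fold change -0.10 ± 0.11). *Nr2f6* had 139.0, 140.7 and 142.0 against 149.2, 139.7 and 124.4 CPM (-0.03 ± 0.11). *Nr2c1* (TR2) was the steadiest of all the genes, with its highest library 1.07 times its lowest. *Nr2c2* (TR4) ranged from 20.6 to 44.3 CPM, with both libraries with Y-linked reads the lowest, and 46.4% of its exon bases overlap *Mrps25*, where reads were not counted. *Nr2f1* (COUP-TFI) was scarce, with 0.897, 1.16 and 0.381 CPM in control and 1.42, 1.82 and 1.53 CPM in caBmpr1a libraries. Its groups did not overlap, but the counts were 10 to 47 a library and the log2 fold change of 0.97 ± 0.53 had an edgeR adjusted p of 0.603.

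Of the remaining orphan and xenobiotic receptors, *Rora* separated the groups most tightly. *Rora*, a constitutively active receptor with roles in metabolism and immunity, had 87.1, 85.0 and 83.2 CPM in control and 67.2, 64.3 and 64.9 CPM in caBmpr1a libraries. The ranges within the groups were smaller than the gap between them. The log2 fold change was -0.38 ± 0.10, with an unadjusted p of 0.0043 and an adjusted p of 0.268 from edgeR and of 0.0994 from DESeq2, so it did not pass. The related *Rorb* had 3.95, 3.94 and 1.14 against 3.44, 2.41 and 5.89 CPM (0.38 ± 0.53). *Nr5a2* (LRH-1), a regulator of bile acid and cholesterol genes in liver, had a log2 fold change of 0.55 ± 0.59, and *Nr6a1* (germ cell nuclear factor) of 0.11 ± 0.20. *Nr1i3*, the constitutive androstane receptor that regulates drug metabolism, failed the filter, with 10, 4 and 5 counts in control and 1, 0 and 2 counts in caBmpr1a libraries. Its summed ratio of control to caBmpr1a was 6.90, and 18.2% of its exon bases overlap *Tomm40l*. The 95% counting interval of that ratio ran from 2.03 to 36.4. This interval pools the libraries and leaves out the spread between them, and it is too narrow if mates were counted separately. It is therefore no test of the groups.

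All 6 retinoid receptor genes had counts, and 4 of them held most of the signal. *Rarg* had 84.9, 71.2 and 78.2 CPM in control and 76.4, 76.5 and 63.0 CPM in caBmpr1a libraries (log2 fold change -0.12 ± 0.13). *Rara* had 38.8, 27.3 and 31.5 against 30.1, 30.3 and 40.3 CPM (0.05 ± 0.17). The RXR partners *Rxra* (-0.08 ± 0.15) and *Rxrb* (0.03 ± 0.11) lay between 59.8 and 83.9 CPM in all libraries. *Rarb*, itself a classical retinoic acid target, stood at 1.82 to 3.62 CPM (-0.15 ± 0.36). *Rxrg* had 15, 1 and 2 counts in control and 10, 3 and 32 counts in caBmpr1a libraries, too uneven for its log2 fold change of 1.05 ± 1.11 to tell the groups apart. Of 18 tested genes of retinoid transport, synthesis, breakdown and response, 0 were called (2 higher and 2 lower at an unadjusted p under 0.05). Their median log2 fold change was 0.37, against -0.0096 over all tested genes. The list held scarce genes, which leaned positive in the whole table, as given above, and their part in this median was not tested. At the unadjusted threshold *Rarres2* (0.91 ± 0.24) and *Tgm2* (0.49 ± 0.18) were higher, and *Dhrs3* (-0.32 ± 0.13) and *Rbp4* lower. Of these, all but *Rbp4* were named after their values were seen. *Rbp4*, the retinol carrier, had 29.1, 28.6 and 24.6 CPM in control and 20.3, 14.6 and 14.2 CPM in caBmpr1a libraries, without overlap. Its log2 fold change of -0.75 ± 0.17 was short of the fold threshold, with an adjusted p of 0.190 from edgeR and 0.0206 from DESeq2. *Rarres1*, a retinoic acid responder, had the largest positive value (1.87 ± 1.10, edgeR adjusted p = 0.623) and was under 1 CPM in all libraries. With 1 library left out its value ran from 1.31 to 4.97.

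The genes of the thyroid hormone and vitamin D receptors, with which HR protein is known to act as a corepressor, were themselves not called. *Thra*, the main thyroid hormone receptor gene of these cells, had 88.6, 106.5 and 98.4 CPM in control and 87.4, 84.8 and 51.1 CPM in caBmpr1a libraries. Control replicate 1 and caBmpr1a replicate 1 differed by little, and the lowest value was in caBmpr1a replicate 3. The log2 fold change was -0.39 ± 0.20 (edgeR adjusted p = 0.576) and -0.22 without the 2 libraries with Y-linked reads. *Thrb* had 19.4, 33.3 and 23.9 against 22.7, 20.5 and 19.5 CPM (-0.29 ± 0.20), and the vitamin D receptor gene *Vdr* had 23.1, 33.1 and 26.4 against 31.6, 23.4 and 15.9 CPM (-0.22 ± 0.25). The 3 values were negative with each of the 4 scalings used. Of 13 tested genes of thyroid hormone and vitamin D handling, 0 were called (1 higher and 3 lower at an unadjusted p under 0.05), with a median of 0.07. *Crym*, which binds thyroid hormone in the cytosol, had the largest positive value (0.95 ± 0.37, edgeR adjusted p = 0.470), and *Dio3*, the deiodinase that inactivates thyroid hormone, the largest negative one (-2.02 ± 0.69, edgeR adjusted p = 0.416) at 0.078 to 1.07 CPM.

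Sex steroid receptors were scarce in both groups. *Esr1* had 2.51, 0.729 and 0.762 CPM in control and 2.71, 0.970 and 2.80 CPM in caBmpr1a libraries (log2 fold change 0.70 ± 0.64, and 1.31 without the libraries with Y-linked reads). *Esr2* (0.84 ± 0.50) and *Pgr* (0.36 ± 0.57) were at most 2.67 and 1.67 CPM. Without the libraries with Y-linked reads *Pgr* had 0.98 (edgeR adjusted p = 0.547). The reads that CreERT2 contributes to *Esr1*, if any, cannot be told apart from those of the endogenous gene in these counts, and both groups carry it. Of the estrogen-related receptors, which need no estrogen and regulate mitochondrial and energy genes, *Esrra* was the abundant one at 39.6 to 49.9 CPM (0.11 ± 0.12). *Esrrb* had 0.583, 0.900 and 0.723 CPM in control and 1.56, 1.63 and 2.28 CPM in caBmpr1a libraries. The groups of *Esrrb* did not overlap, on 13 to 21 and 34 to 70 counts, and its log2 fold change of 1.31 ± 0.46 had an unadjusted p of 0.0207 and an adjusted p of 0.420 from edgeR. *Esrrg* had 0.83 ± 0.63, and 0.45 without the libraries with Y-linked reads.

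The list of sex steroid handling and target genes was chosen with earlier results of these data known, so its counts are a description. Its median log2 fold change was 0.20. Of 11 tested genes, 1 was called lower and 0 higher (0 higher and 4 lower at an unadjusted p under 0.05). The gene called was *Rerg*, a small GTPase of the RAS family first described as estrogen-regulated. *Rerg* had 101.5, 99.1 and 126.6 CPM in control and 47.7, 45.9 and 44.0 CPM in caBmpr1a libraries, and fell by 1.25 ± 0.13 on the log2 scale (edgeR adjusted p = 0.0116). The 3 caBmpr1a values lay close together, all under the lowest control value. It was 1 of only 2 genes called lower in the whole table. Its log2 fold change stayed between -1.32 and -1.13 with 1 library left out, and the edgeR adjusted p passed 0.05 without control replicate 2 (0.05702), control replicate 3 (0.05236) or caBmpr1a replicate 2 (0.101). *Cited1*, a transcriptional coregulator, had the largest positive value (0.92 ± 0.88, edgeR adjusted p = 0.761), at under 1 CPM in all libraries.

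The peroxisome proliferator-activated receptors, which sense fatty acids, were led by *Ppard*. *Ppard* had 35.3, 36.3 and 38.99 CPM in control and 37.0, 33.4 and 29.5 CPM in caBmpr1a libraries (log2 fold change -0.15 ± 0.12). *Ppara* had 25.2, 30.3 and 35.8 against 31.5, 25.8 and 23.1 CPM (-0.18 ± 0.17). *Pparg*, known as a regulator of lipid storage, was low at 2.19 to 3.95 CPM (-0.05 ± 0.33). Of 18 PPAR target genes, mostly of fatty acid uptake, storage and oxidation, 0 were called (0 higher and 3 lower at an unadjusted p under 0.05). The median was -0.26, and 15 of 18 were negative, 11 of 18 when scaled by library size only. Their summed level was 3708 to 3968 CPM in control and 2488 to 3300 CPM in caBmpr1a libraries, beside the lower summed AT2 markers given above, whose part was not tested. That separation came from *Cd36*, a fatty acid transporter named after its values were seen. *Cd36* had 1605, 1655 and 1608 CPM in control and 1119, 866 and 642.1 CPM in caBmpr1a libraries. Its log2 fold change of -0.89 ± 0.20 was short of the fold threshold, with an adjusted p of 0.198 from edgeR and 0.00316 from DESeq2. Without *Cd36* the sums overlapped, at 2100 to 2344 against 1846 to 2181 CPM. *Cidec*, of lipid droplets, had the largest positive value (0.61 ± 0.61, edgeR adjusted p = 0.775).

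Of 27 other coregulators tested, 0 were called (1 higher and 0 lower at an unadjusted p under 0.05) and the median was -0.01. *Ncoa7* had the largest negative value (-0.69 ± 0.33, edgeR adjusted p = 0.554).

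**Figure D4:**
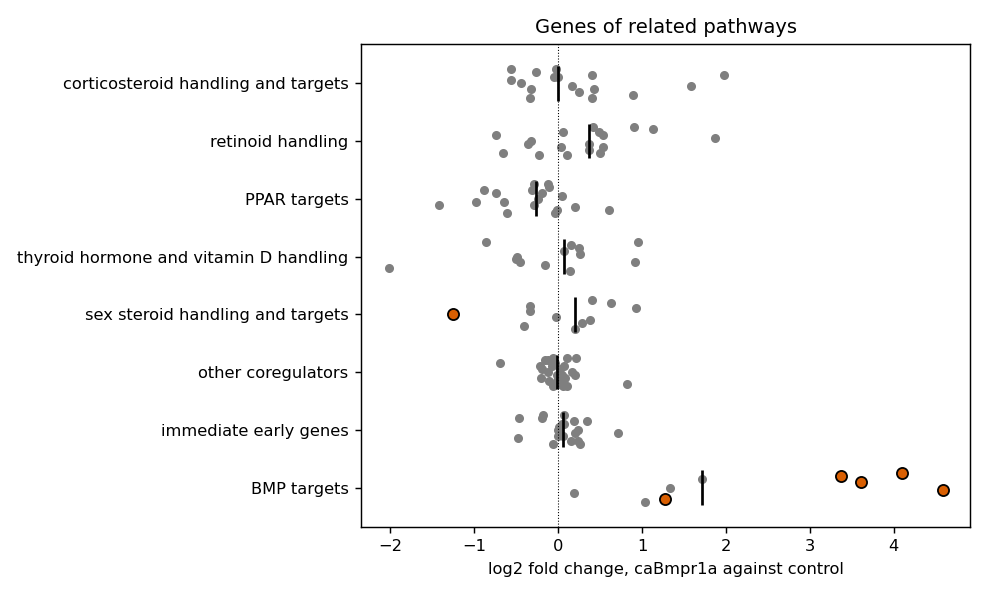
Log2 fold changes (caBmpr1a minus control) of the tested genes in each listed pathway, 1 point a gene, with a black line at the median and genes with an adjusted p under 0.05 in orange. Apart from the BMP targets, at a median of 1.71, *Rerg* at -1.25 is the only orange point.

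Variation between libraries that was not between the groups was larger than the group difference for many of the genes. Both libraries with Y-linked reads lay below the other 4 for 13 of the 38 tested genes (34.2%, against 15.8% of all tested genes): *Nr3c1*, *Nr3c2*, *Nr2f6*, *Nr2c2*, *Rarb*, *Rxra*, *Thrb*, *Vdr*, *Ppara*, *Ncoa1*, *Ncoa2*, *Ncor1* and *Nrip1*. They lay above the other 4 for 5 genes (13.2%, against 19.5%), *Nr4a1*, *Nr5a2*, *Rara*, *Rxrg* and *Rorb*. These shares are a description, since the 2 libraries were singled out by their reads. Over the 4 libraries without Y-linked reads, edgeR called *Hr* alone among the 37 genes then tested.

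**Figure D5:**
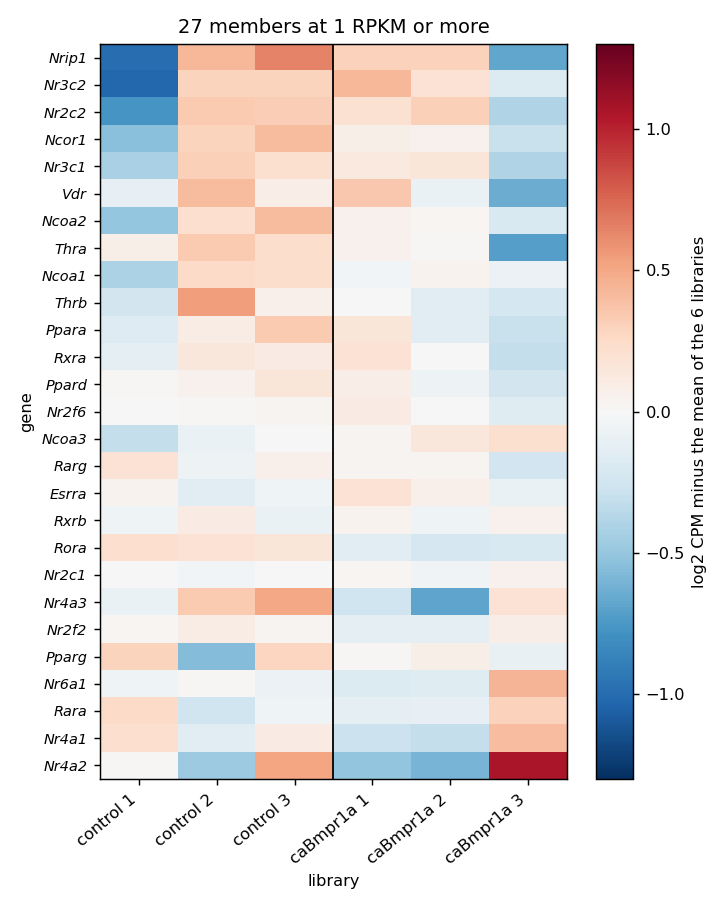
Log2 CPM of the 27 genes at 1 RPKM or more in the 6 libraries, each relative to its own mean, in colours limited to 1.3 in either direction, with genes sorted by the sum of the values in control replicate 1 and caBmpr1a replicate 3, the libraries with Y-linked reads. Genes at one end, such as *Nrip1*, are low in both of these libraries, 1 of each genotype, and *Rora* is higher in every control library than in any caBmpr1a library.

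RefSeq promoter windows on GRCm38.p6, from 250 bases before to 50 bases after a transcription start, were at hand for 34 of the 39 genes, 55 windows in all. *Nr3c1*, *Thra*, *Hr*, *Ncoa2* and *Ncoa3* had no entry. The nuclear receptor half-site AGGTCA, on either strand, was in 9 of the 55 windows (16.4%), against 16.3% of 32851 windows of all genes. The GC-rich SMAD element GGCGCC was in 12 of the 55 (21.8%), against 11.9%. The 11 genes with GGCGCC were *Esrra*, *Esrrb*, *Nr2c1*, *Nr2f6*, *Nr4a1*, *Nr4a2*, *Ppara*, *Ppard*, *Pparg*, *Rxrb* (in both of its windows) and *Thrb*. Windows were not matched for base composition, so the 2 shares of this GC-rich element are not compared further. A match describes the letters and says nothing of binding.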

How the data were processed

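Per the labels and the study's methods, the authors trimmed reads (Trimmomatic), aligned them to mm10 (HISAT2), dropped duplicates and counted fragments on genes (featureCounts 1.5.3). The deposited values are raw counts, 1 column for each of the 6 libraries, with 0 columns left unused. Strand was ignored in counting, and a read on 2 genes was not counted. Even numbers made up 56.9% to 60.8% of counts from 1 to 20. Although the methods speak of fragments, mates thus appear to have been counted separately, and low counts look more precise than they are. Intervals cover counting error only. A count of 3 corresponds to 0.105 to 0.139 CPM.

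Counts were tested in edgeR 4.0.16 (R 4.3.3; TMM, quasi-likelihood test with no covariate, expression filter at its default minimum count of 10), after a test on simulated data, with DESeq2 1.42.0 and limma 3.58.1 as alternatives. Libraries of 1 group all differed by more than counting noise (chi-square per degree of freedom 12.9 to 71.4) and were kept as 6 samples. Every member and every listed BMP target is named. Of the other lists, cell type markers aside, genes with an adjusted p under 0.05 are named, or else the gene farthest from 0 either way, except 2 that are not reported here. The members and lists were chosen with earlier results of these data known. Exon overlaps come from the deposited coordinates.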

Additional observations from a re-analysis of the deposited data

How the results depend on the processing

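Scaling, filters, covariates, tests and left-out libraries were varied, and *Hr* was called in each setting except without control replicate 2, control replicate 3 or caBmpr1a replicate 2. The count of genes called higher, 38, became 108 with a covariate for Y-linked reads, 25 with limma-voom and 119 with DESeq2. The 2 called lower became 1 with upper-quartile scaling, library size only, a minimum count of 50, an age covariate or limma-voom, 5 with no filter, 34 with the Y-linked covariate, 8 without the libraries with Y-linked reads and 25 with DESeq2. With 1 library left out these counts ranged from 6 to 59 and from 0 to 4, and members called higher from 0 to 1.

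The replicate number as a block gave 36 higher and 5 lower (28 and 1 shared), kept *Hr* (2.498, edgeR adjusted p = 0.02345) and turned *Nr4a2* to -0.033. Same-numbered libraries deviated with correlations of -0.24, 0.20 and -0.53, so they share only a number.

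Scaling by library size only moved the median log2 fold change of all genes from -0.0096 to 0.12, the upper quartile moved it to 0.064 and DESeq2's size factors to 0.017. The values that changed sign were all of uncalled genes. Library size only gave *Nr3c1* 0.048, *Nr2f2* 0.029, *Nr2f6* 0.098, *Nr4a1* 0.038, *Rarg* 0.0079, *Rxra* 0.048, *Pparg* 0.075, *Ncoa1* 0.062, *Ncoa2* 0.0029 and *Bmpr1a* 0.11. Upper-quartile scaling gave *Nr2f6* 0.040, *Pparg* 0.017, *Ncoa1* 0.0073 and *Bmpr1a* 0.054. DESeq2's size factors gave *Bmpr1a* 0.010, halved counts 0.0019, and a minimum count of 50 gave *Bmpr1a* 0.048, *Nr2f6* 0.035 and *Pparg* 0.012. Without the libraries with Y-linked reads, *Nr2f6* was 0.064, *Nr2c2* -0.039, *Nr4a2* -0.63, *Nr6a1* -0.100, *Rarb* 0.037, *Rarg* 0.067, *Pparg* 0.16, *Zbtb16* -0.41 and *Bmpr1a* 0.061. *Nr4a2* was -0.092 with the Y-linked covariate and -0.017 with limma-voom. The cause was not tested.

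With 1 library left out, values that changed sign ranged as follows: *Nr3c1* -0.28 to 0.11, *Nr3c2* -0.14 to 0.38, *Nr2f6* -0.062 to 0.077, *Nr2c2* -0.27 to 0.24, *Nr4a1* -0.33 to 0.037, *Nr4a2* -0.60 to 0.41, *Nr5a2* -0.013 to 0.84, *Nr6a1* -0.086 to 0.24, *Rara* -0.071 to 0.19, *Rarb* -0.37 to 0.11, *Rarg* -0.18 to 0.0098, *Rxra* -0.17 to 0.079, *Rxrb* -0.015 to 0.084, *Rorb* -0.015 to 0.65, *Vdr* -0.46 to 0.033, *Pparg* -0.29 to 0.075, *Pgr* -0.085 to 0.77, *Ncoa1* -0.26 to 0.031, *Ncoa2* -0.36 to 0.055, *Ncor1* -0.40 to 0.020, *Nrip1* -0.51 to 0.15, *Zbtb16* -0.98 to 2.56 and *Bmpr1a* -0.11 to 0.15. Uncalled values that kept their sign but moved by over 1.5 times included *Rxrg* (0.17 to 3.07), *Esr1* (0.40 to 1.52), *Esr2* (0.53 to 1.12), *Esrrg* (0.37 to 1.22), *Nr2f1* (0.63 to 1.32), *Nr4a3* (-0.69 to -0.28), *Thra* (-0.49 to -0.15), *Thrb* (-0.46 to -0.055), *Rarres1* (1.31 to 4.97), *Cited1* (0.32 to 2.21), *Cidec* (0.29 to 1.41), *Ncoa7* (-0.91 to -0.34) and *Hspa1b* (-0.71 to -0.24). Of the BMP targets, *Id1*, *Id3* and *Smad6* lost their calls without some single libraries (highest edgeR adjusted p = 0.1296, 0.06018 and 0.2158), and *Smad6* was not called with DESeq2's size factors, the age covariate or limma-voom (adjusted p = 0.05451, 0.09881 and 0.05674).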
